A study of Homo sapiens with 4 samples.

Results

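Long intergenic and antisense non-coding RNAs were examined in U87 cells, an established human glioblastoma line, after transfection with a mimic of tRF-3009a, a fragment of a transfer RNA. The members are the genes that GENCODE v29 types as lincRNA or antisense, with MALAT1, NEAT1, KCNQ1OT1, MEG3, TUG1, NORAD, GAS5, ZFAS1 and the SNHG genes left out. The deposited table held 4205 of them among 22031 genes matched to the annotation, 2291 lincRNA genes and 1914 antisense genes, from 5754 transcripts. The annotation itself lists 7629 lincRNA and 5583 antisense genes. Of the members, 2254 carry only a clone-style name and are counted but, with a single exception, not named. The study has 4 libraries. In the 2 mimic libraries U87 cells received 50 nM of the tRF-3009a mimic and in the 2 control libraries 50 nM of single-stranded siGL2 (ssGL2), a control, each for 48 h with lipofectamine, and cells of both groups were otherwise the same line in the same medium. The labels number the libraries of a group 1 and 2. They do not state whether these were separate cultures, and p-values then measure only the spread between the libraries, which may be technical.

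Long non-coding RNAs are transcribed by RNA polymerase II and often spliced and polyadenylated like messenger RNAs, but encode no known protein. A lincRNA gene lies apart from protein-coding genes, while an antisense gene runs over a protein-coding gene on the opposite strand, and many of both start divergently from the promoter of a coding gene. Members of these classes are known for low levels and restricted expression. Some guide chromatin complexes, some host microRNAs in their introns or exons, and many have no assigned function.

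Recovered depth was 28860788 to 33848402 reads per library, and members held 164623 to 199625 of them. The members divided the libraries by number rather than by treatment. Among the 1881 members with a mean value of at least 10, which are the members tested, 541 (28.8%) differed more than 2-fold between control 1 and control 2, and 565 (30.0%) did so between mimic 1 and mimic 2. Between control 1 and mimic 1 it was 270 (14.4%) and between control 2 and mimic 2 it was 191 (10.2%). Of all 16535 genes tested, 20.8% differed more than 2-fold between the controls and 21.2% between the mimics. Between control 1 and mimic 1 their share was 4.48%, and between control 2 and mimic 2 it was 3.83%. The split by number was therefore not particular to the members. The labels do not say what a number stands for, so anything that separates number 1 from number 2 libraries cannot be told apart here. All 7 of the mesenchymal glioma line markers listed were abundant, with VIM at 121239 to 276546, whereas the astrocyte marker GFAP was at 12.5 to 29.7. Of the other lists, neuronal markers summed to 5487 to 9256 and immune markers to 7241 to 10226, nearly all of it CD68, while PTPRC was at 2.86 to 6.72. Endothelial markers summed to 227 to 543, oligodendrocyte markers to 98.9 to 437, epithelial markers to 297 to 360 and astrocyte markers to 422 to 1116. The part of these genes in the results was not tested.

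Start regions are shown for 6 of the members named for their difference between number 1 and number 2 libraries. They were picked with motif matches in view, to show where a matched motif lies, and are not the 6 largest differences. LINC01119, TMPO-AS1 and VLDLR-AS1 moved far between numbers, and their RefSeq start regions hold none of the motifs searched. For LINC01119 and VLDLR-AS1 the RefSeq start lies 11167 and 20986 bases from the GENCODE start of the gene, against 196 for TMPO-AS1. The regions of LINC01119 and VLDLR-AS1 may therefore not be the starts of the transcripts counted. Each run is 300 bases from RefSeq (GRCh38.p14), 250 before and 50 after the annotated start, read 5′ to 3′ on the gene's strand. Capitals mark a match to one of 6 motifs searched on both strands, and runs without capitals hold none. LASTR (chr10:5596069-5596368, minus strand), LINC00702 (chr10:4243863-4244162, minus strand) and LINC01411 (chr5:174336104-174336403, plus strand) were lower in number 2 and each holds the AP-1 motif TGACTCA or its reverse complement TGAGTCA. ATP2A1-AS1 (chr16:28879872-28880171, minus strand) was also lower and holds the E2F motif TTTCCCGC. MIR503HG (chrX:134546581-134546880, minus strand) and LINC00571 (chr13:38143183-38143482, minus strand) were higher in number 2, and LINC00571 holds the reverse complement of TATAAA, the TATA box.
LASTR: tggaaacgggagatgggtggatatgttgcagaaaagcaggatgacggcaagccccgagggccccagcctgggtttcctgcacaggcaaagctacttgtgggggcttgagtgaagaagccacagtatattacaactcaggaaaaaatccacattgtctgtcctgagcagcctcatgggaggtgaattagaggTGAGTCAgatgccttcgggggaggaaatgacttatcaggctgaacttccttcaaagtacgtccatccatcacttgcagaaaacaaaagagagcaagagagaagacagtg
LINC00702: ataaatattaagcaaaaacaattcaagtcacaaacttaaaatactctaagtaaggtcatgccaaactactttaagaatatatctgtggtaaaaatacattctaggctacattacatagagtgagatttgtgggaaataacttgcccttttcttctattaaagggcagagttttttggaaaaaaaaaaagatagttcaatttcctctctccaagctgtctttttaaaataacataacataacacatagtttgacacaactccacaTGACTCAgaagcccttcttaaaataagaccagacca
LINC01411: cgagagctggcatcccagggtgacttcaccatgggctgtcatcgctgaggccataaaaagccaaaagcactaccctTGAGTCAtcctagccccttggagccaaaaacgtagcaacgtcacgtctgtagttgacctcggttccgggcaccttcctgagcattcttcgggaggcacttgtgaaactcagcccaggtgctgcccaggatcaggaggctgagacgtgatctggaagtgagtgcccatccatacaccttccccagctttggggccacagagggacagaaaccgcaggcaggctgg
ATP2A1-AS1: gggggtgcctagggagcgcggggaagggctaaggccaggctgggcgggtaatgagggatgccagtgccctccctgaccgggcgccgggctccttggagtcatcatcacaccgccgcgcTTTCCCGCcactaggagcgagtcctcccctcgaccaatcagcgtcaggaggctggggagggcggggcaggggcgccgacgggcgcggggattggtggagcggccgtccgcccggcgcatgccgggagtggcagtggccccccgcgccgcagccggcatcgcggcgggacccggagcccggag
MIR503HG: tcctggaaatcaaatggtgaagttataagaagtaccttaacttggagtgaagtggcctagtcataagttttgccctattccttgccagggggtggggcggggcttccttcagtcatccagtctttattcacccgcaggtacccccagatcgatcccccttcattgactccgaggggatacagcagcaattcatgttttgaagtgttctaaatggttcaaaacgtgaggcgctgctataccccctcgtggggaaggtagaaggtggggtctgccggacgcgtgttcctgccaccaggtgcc
LINC00571: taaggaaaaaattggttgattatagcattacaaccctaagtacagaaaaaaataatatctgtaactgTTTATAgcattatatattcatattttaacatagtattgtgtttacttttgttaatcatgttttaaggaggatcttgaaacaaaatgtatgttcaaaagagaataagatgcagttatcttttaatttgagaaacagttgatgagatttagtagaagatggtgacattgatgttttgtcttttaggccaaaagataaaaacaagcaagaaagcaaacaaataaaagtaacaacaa

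Both types were low in U87 cells. The median of the mean normalized value was 8.03 for lincRNA and 8.75 for antisense genes, against 639 for protein-coding genes. Per kilobase of transcript, a scale that allows for the length of a gene, the medians were 7.92, 9.52 and 239. The most abundant transcript of a gene had a median of 2 exons in both types and a median length of 1093 bases for lincRNA and 921 for antisense, against 8 exons and 2933 bases for coding genes. It had a single exon in 607 lincRNA and 418 antisense genes. A mean of at least 10 was reached by 1003 lincRNA and 878 antisense genes, and a mean of at least 1000 by 11 and 6.

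The summed value of lincRNA genes was 0.273%, 0.275%, 0.289% and 0.275% of the matched values in control 1, control 2, mimic 1 and mimic 2. Antisense genes held 0.300%, 0.317%, 0.321% and 0.324% in the same order. The control means were 0.274% ± 0.00125 (SD, n = 2) and 0.309% ± 0.0116, and the mimic means were 0.282% ± 0.0103 and 0.322% ± 0.00264. Mimic minus control was 0.00830 percentage points for lincRNA and 0.0139 for antisense, with an exact permutation p of 0.333 for each, two-sided, the smallest that 2 libraries against 2 can give. Number 2 minus number 1 was -0.00640 percentage points for lincRNA (exact permutation p = 1) and 0.0101 for antisense (exact permutation p = 0.667). In a culture of cells, fewer cells that express a gene and less RNA per cell cannot be told apart from such values.

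One antisense gene weighed heavily in these sums. AD000090.1 (ENSG00000283907, chr19:35557956-35581954, GRCh38), a clone-named gene antisense to ATP4A that was chosen after its values were seen, held 29.03% of the antisense sum. It was counted from 1 transcript of 494 bases, at 29680, 25890, 30339 and 25413 in control 1, control 2, mimic 1 and mimic 2. The number 2 libraries were the lower ones. With all members, lincRNA genes had 0.908, 0.867, 0.903 and 0.847 times the antisense sum in control 1, control 2, mimic 1 and mimic 2. Without AD000090.1 the ratio was 1.35, 1.17, 1.33 and 1.14, so this single gene set which of the 2 types held more. Antisense number 2 minus number 1 was then 0.0272 percentage points, at 0.210% ± 0.0107 (SD, n = 2) in number 1 and 0.237% ± 0.00506 in number 2 (exact permutation p = 0.333).

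**Figure D1:**
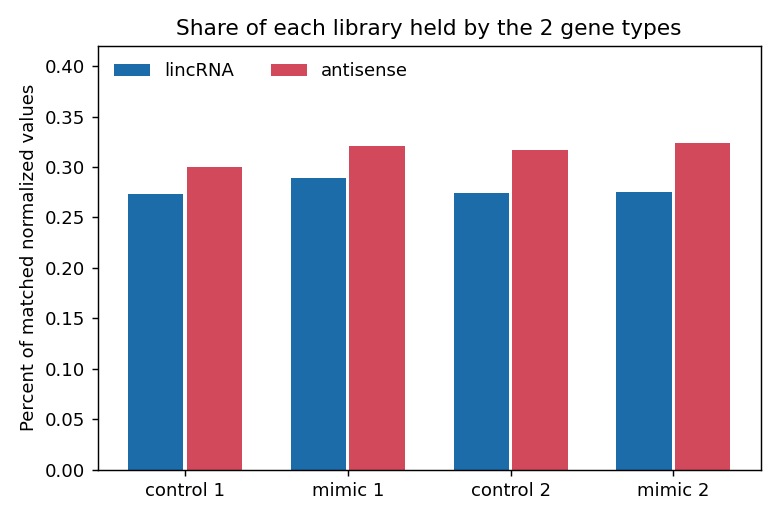
Bars give the percent of all matched normalized values held by lincRNA genes (blue) and by antisense genes (red) in each of the 4 libraries, with no error because each bar is 1 library. Antisense bars stand at 0.300% to 0.324% and lincRNA bars at 0.273% to 0.289%.

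Among members with a symbol, the highest lincRNA levels per kilobase were those of LINC01050 (2875), LINC01444 (2811), LINC00973 (2372), LINC00520 (2193), CRNDE (1622) and CYTOR (1071). CRNDE is a transcript known to be raised in gliomas, and CYTOR, also called LINC00152, is linked to the cytoskeleton and proliferation. Reads of CYTOR are uncertain because MIR4435-2HG is a near-identical copy. LINC01050 stood at normalized values of 2379 and 2026 with ssGL2 and at 2322 and 2014 with the mimic. LINC00520 stood at 861 and 3005 with ssGL2 and at 854 and 1895 with the mimic. LINC01050 therefore varied little over the 4 libraries, and LINC00520 was higher in both number 2 libraries. LINC01050 was still called between numbers, at a log2 difference of -0.22 ± 0.08 (SE, limma adjusted p = 0.0454). It lost that call without control 1, control 2 or mimic 2. The highest antisense levels per kilobase were those of THUMPD3-AS1 (1426), DLGAP1-AS1 (1355), LUCAT1 (1317), FGD5-AS1 (973), THAP9-AS1 (798) and ZMIZ1-AS1 (738). LUCAT1, a transcript induced by oxidative and inflammatory stress, stood at normalized values of 1828 and 1481 with ssGL2 and at 1464 and 1598 with the mimic, and the groups overlapped.

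The comparison the study was built for sets the mimic against the control. No member passed the test, 0 of 1881, and 0% of all 16535 genes passed it (limma on log2(value + 1), Benjamini-Hochberg adjusted p under 0.05 over all genes). At an unadjusted p under 0.05 there were 26 genes, 5 of them members, 4 lincRNA and 1 antisense. That is far fewer than the share of 0.05 that a test gives where nothing differs. The count of members called was 0 with edgeR and 0 with DESeq2 on the reads recovered from the table, and 8 and 2 members had an unadjusted p under 0.05 there. The spread between numbers is part of the error of these fits, which hold no replicate block. A count of 0 therefore does not show that the mimic had no effect. The median log2 difference was 0.01 for lincRNA genes and 0.03 for antisense genes, against -0.01 for all genes tested. Both mimic values lay above both control values for 247 members (13.1%), 139 lincRNA and 108 antisense, where the share of all genes was 6.18%. Both lay below for 160 members (8.51%), 94 lincRNA and 66 antisense, where the share of all genes was 6.21%. The members' groups were thus separated more often than those of all genes, in both directions, while their values were lower and varied more between libraries. If the libraries were exchangeable, groups of 2 against 2 would separate in either direction with a probability of 0.333. The shares above and below, added up, stayed under this for members and for all genes. Whether the excess of members over all genes reflects the mimic was not tested. More than 2-fold differences within both numbers occurred in the same direction for 19 members (1.01%) and in opposite directions for 31 (1.65%), against 0.435% and 0.478% of all genes.

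Of the named lincRNA genes whose groups did not overlap, TWSG1-DT, a transcript that starts 326 bases from the start of TWSG1, stood at normalized values of 84.1 and 80.7 with ssGL2 and at 155 and 117 with the mimic. Its log2 difference was 0.70 ± 0.34 (SE, n = 2 per group). L3MBTL4-AS1 stood at 83.1 and 56.0 with ssGL2 and at 183 and 96.4 with the mimic, and its log2 difference of 0.95 ran from 0.49 to 1.41 when 1 library was left out. For these 2 genes every mimic value was above every control value, and neither passed the test. With the replicate number as a block L3MBTL4-AS1 passed it (limma adjusted p = 0.0260) and TWSG1-DT did not (adjusted p = 0.235). LINC01087 stood at 46.8 and 46.0 with ssGL2 and at 81.8 and 62.1 with the mimic. LINC00461, a transcript of the developing brain, stood at 50.9 and 160 with ssGL2 and at 172 and 227 with the mimic, and its log2 difference of 1.12 ran from 0.30 to 1.94 with 1 library left out. On the lower side DNAJC3-DT, which starts 214 bases from the start of the chaperone gene DNAJC3, stood at 95.6 and 103 with ssGL2 and at 61.1 and 51.6 with the mimic. Its log2 difference was -0.81 ± 0.34, and it had the smallest unadjusted p of the genes named in this comparison, 0.0722 with limma (adjusted p = 1.00). FAM88C, LINC02202, LINC00504 and LINC00665 had log2 differences of -0.59, -0.43, -0.35 and -0.37. The log2 differences of LINC02202 and LINC00665 moved by over 1.5 times without 1 library, from -0.60 to -0.25 and from -0.64 to -0.11.

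Among antisense genes on the higher side, PXN-AS1 stood at 49.9 and 34.8 with ssGL2 and at 63.0 and 72.4 with the mimic, a log2 difference of 0.68 ± 0.40 (SE, n = 2 per group). PITPNA-AS1 stood at 178 and 174 with ssGL2 and at 207 and 221 with the mimic, a log2 difference of 0.28 ± 0.27. SAP30-DT, MTA1-DT and GALNT7-DT had log2 differences of 0.57, 0.35 and 0.27. PITPNA-AS1 kept nearly the same level within each group, but its difference was close to its error. On the lower side PPP1R14B-AS1 stood at 249 and 248 with ssGL2 and at 197 and 185 with the mimic, a log2 difference of -0.38 ± 0.27. SLC16A4-AS1 had 146 and 134 against 110 and 92.7, a log2 difference of -0.47 ± 0.31. KMT2E-AS1, ZEB1-AS1 and NAXD-AS1 had log2 differences of -0.59, -0.45 and -0.40. Leaving out 1 library moved 6 of these differences by over 1.5 times. They ran from 0.43 to 0.94 for PXN-AS1, from 0.16 to 0.99 for SAP30-DT and from 0.23 to 0.46 for MTA1-DT. On the lower side they ran from -0.89 to -0.29 for KMT2E-AS1, from -0.73 to -0.16 for ZEB1-AS1 and from -0.59 to -0.21 for NAXD-AS1. None of these antisense genes passed the test, where the adjusted p of each was 1.00 with limma.

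**Figure D2:**
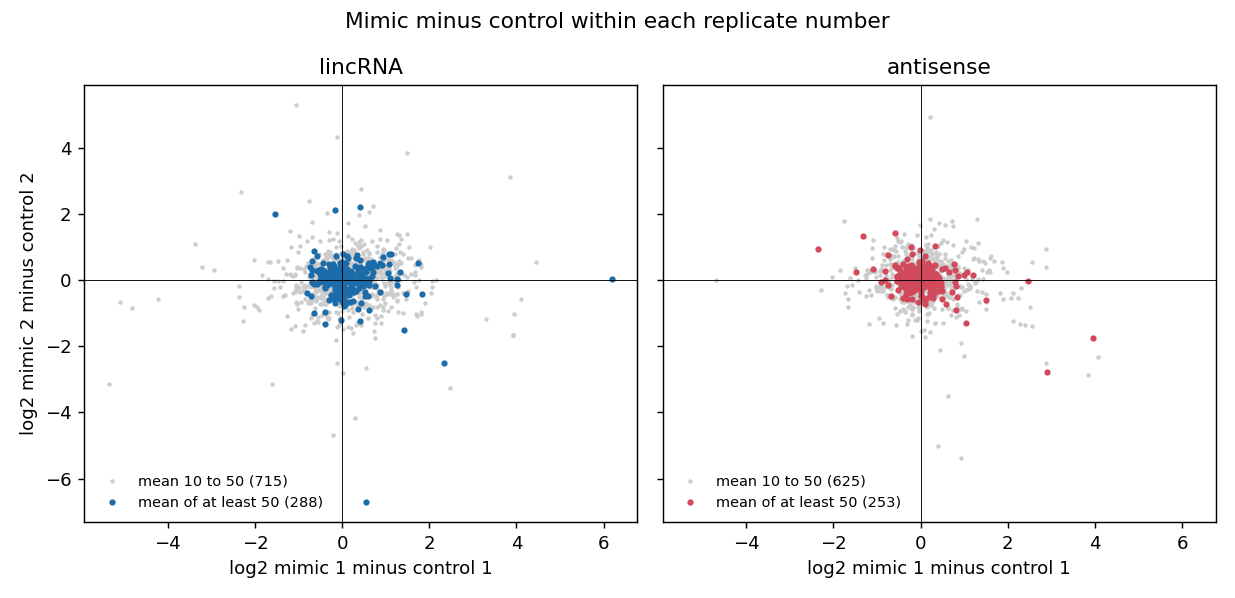
Each point is 1 tested member, with the log2 difference mimic 1 minus control 1 on the x axis and mimic 2 minus control 2 on the y axis, for lincRNA (left) and antisense (right), and coloured points have a mean of at least 50. Points gather around 0 on both axes, and more than 2-fold differences were in the same direction on both for 19 members and in opposite directions for 31.

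With the replicate number added as a block, limma called 117 of the 16535 genes tested between mimic and control. Members were 17 of these, out of 1881 members tested, with 11 higher and 6 lower in the mimic. By type, 15 of 1003 lincRNA genes and 2 of 878 antisense genes tested were called. Whether members, or either type, were called more often than all genes was not tested. Of the 17, 9 had a library listed at 0 and 8 had groups that did not overlap. LINC00847 was listed at 0 in control 1 and had 84.1 in control 2, 72.0 in mimic 1 and 85.9 in mimic 2. The LINC00941 gene ENSG00000235884, which shares its symbol with a more abundant gene, had 57.2 and 104 in the controls, 83.7 in mimic 1 and 0 in mimic 2. UBAC2-AS1 had 33.3 and 74.0 in the controls, 0 in mimic 1 and 46.8 in mimic 2. In each of these 3 genes a single library at 0 stood apart from the other 3 libraries. TMEM147-AS1 had 33.3 in control 1 against 221, 187 and 218 in control 2, mimic 1 and mimic 2. Without the library that stood apart, the log2 difference turned to -0.10 for LINC00847, 0.11 for LINC00941 and -0.13 for TMEM147-AS1. LINC00461 was the other of the 5 smallest p-values with the block (limma adjusted p = 0.00013). Its groups did not overlap, and its log2 difference without the block ran from 0.30 to 1.94 with 1 library left out.

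Between number 2 and number 1 libraries the members differed widely. That comparison was chosen with the libraries already known to group by number, so its p-values are not a fresh test of that grouping. Of 1881 tested members 464 (24.7%) passed the test, where 50.2% of all 16535 genes did (limma, Benjamini-Hochberg adjusted p under 0.05). Higher in number 2 were 288 members and lower were 176, against 26% and 24.2% of all genes. The counts were 141 lincRNA genes higher and 107 lower, and 147 antisense genes higher and 69 lower. Of the called genes 56.9% were higher among lincRNA, 68.1% among antisense and 50.8% among protein-coding genes. The median log2 difference over all tested genes of a type was -0.03 for lincRNA and 0.10 for antisense, against 0.01 for all genes. With control 2 or mimic 2 left out the members called numbered 260 and 248, and with control 1 or mimic 1 left out 398 and 381. The share of higher ones among the antisense genes called then ran from 60.9% to 76.4%, and among lincRNA from 49.7% to 63.3%, so the lincRNA split was even without control 2 and turned without mimic 2.

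Members and other genes were called less often at low levels. At a mean of 10 to 50, where 1340 of the 1881 tested members lie, 16.0% of members, 19.4% of all genes and 23.5% of protein-coding genes were called. At 50 to 200 the shares were 39.1%, 44.4% and 47.3%, and at 200 to 1000 they were 67.5%, 59.2% and 58.9%. At 1000 and above, where 17 members lie, each share was 64.7%. Members were below both in the lower 2 of these ranges and above both at 200 to 1000, differences that were not tested.

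**Figure D3:**
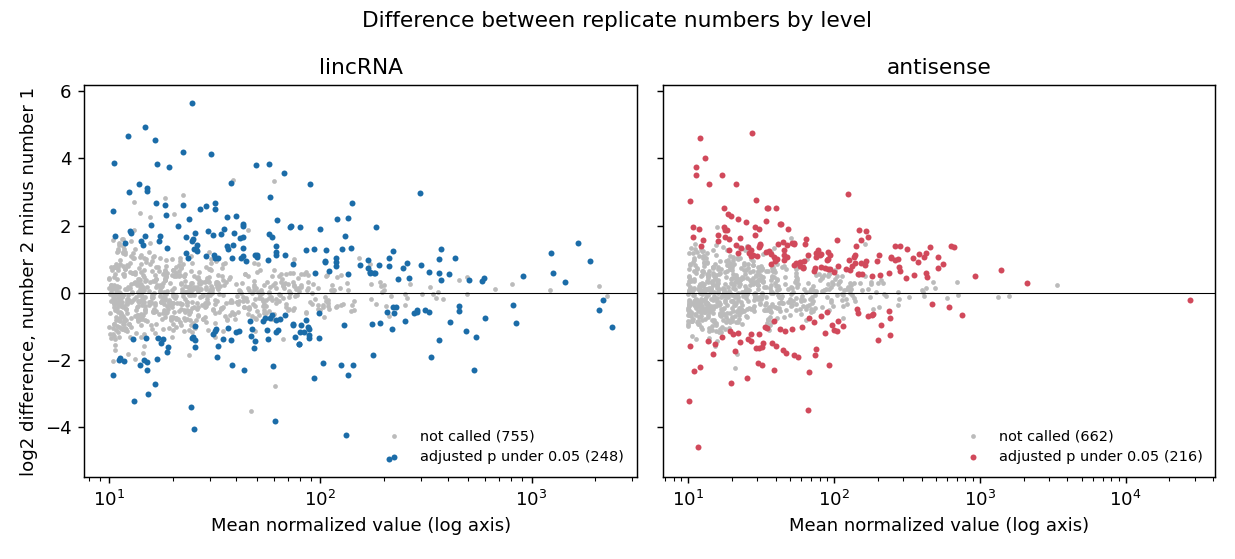
Each point is 1 tested member, with its mean normalized value on a log axis against its log2 difference, number 2 minus number 1, for lincRNA (left) and antisense (right), and coloured points passed the test. Called members appear over the whole range of levels, 248 lincRNA and 216 antisense, and the most abundant antisense point is AD000090.1.

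LASTR, a lincRNA named for its contact with the splicing factor SART3 (chr10:5594991-5596118), had the largest difference among called lincRNA genes with a symbol and a mean of at least 50. It had 405 and 410 in control 1 and mimic 1, and 8.97 and 16.1 in control 2 and mimic 2, a log2 difference of -4.97 ± 0.29 (SE, n = 2 per number, limma adjusted p = 2.08e-06). LINC01119 (chr2:46816697-46859007) stood at 254 and 252 in the number 1 libraries and at 10.1 and 15.2 in the number 2 libraries, a log2 difference of -4.24 ± 0.28. In both genes the number 1 libraries agreed closely and every number 2 value was far below them. LINC01551 had 199 and 257 against 54.9 and 29.5, and LYPLAL1-AS1 had 199 and 206 against 59.6 and 33.98. LINC00702 had 104 and 92.8 against 20.2 and 21.9, and LINC01411 had 252 and 216 against 49.3 and 54.3. The log2 differences of these 4 genes were -2.15 to -2.46, and none of their groups overlapped.

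On the higher side LINC01828 (chr2:67086446-67311439) had 5.21 and 8.11 in control 1 and mimic 1, and 97.5 and 116 in control 2 and mimic 2, a log2 difference of 3.84 ± 0.37 (SE, n = 2 per number, limma adjusted p = 3.76e-05). LIVAR (chr18:70335929-70337310) had 7.31 and 12.7 against 114 and 136, a log2 difference of 3.56 ± 0.35. MIR503HG, the host transcript of the microRNA miR-503 (chrX:134543337-134546632), had 11.4 and 15.3 against 93.0 and 111, a log2 difference of 2.85 ± 0.32. These 3 genes were near the level of the tested minimum in number 1. LINC00571 had 44.8 and 31.6 against 239 and 247, LINC02604 had 54.0 and 40.5 against 216 and 229, and LINC00662 had 28.1 and 61.2 against 192 and 198. All 12 lincRNA genes named by size kept their call with each library left out in turn, with an adjusted p of at most 0.0224 (limma).

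**Figure D4:**
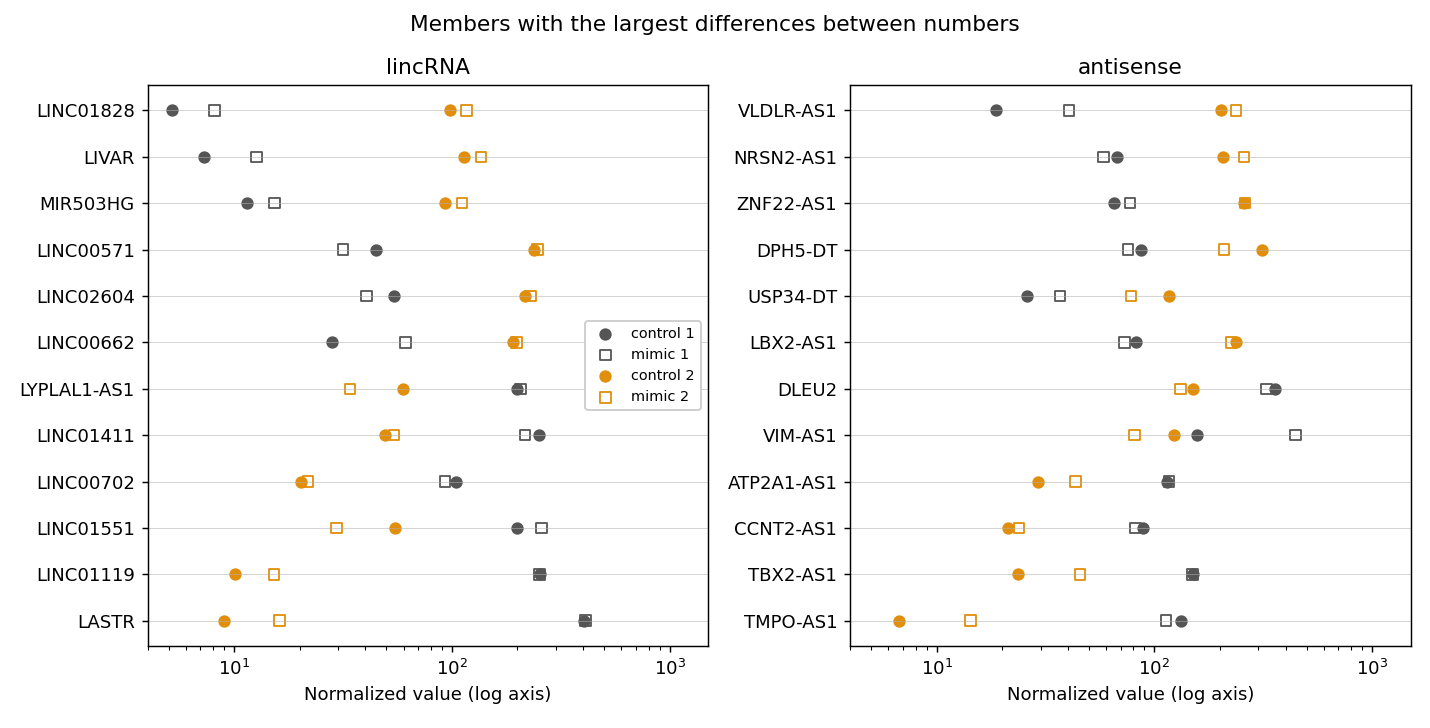
Normalized values on a log axis of the 12 lincRNA (left) and 12 antisense genes (right) named for their difference between numbers, with filled circles for controls, open squares for mimics, grey for number 1 and orange for number 2. In every gene all grey symbols lie on one side of all orange ones, and in VIM-AS1 mimic 1 stands apart from control 1.

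Antisense genes need a caution on strand. The library kit marks the strand, but the setting used when reads were assigned is not given in the sources used here, and without it reads of an antisense gene and of its sense partner cannot be told apart where exons overlap. By gene span 1665 of the 1914 antisense genes (86.99%) overlap a protein-coding gene on the other strand, and 1240 overlap an exon there. Of the 635 tested antisense genes whose exons overlap another gene 115 were higher and 48 lower in number 2 (25.7% called). Of the 243 without such overlap 32 were higher and 21 lower (21.8% called). The difference between these classes was not tested, and 50.2% of all genes were called. For lincRNA genes the counts were 43 and 32 with overlap and 98 and 75 without.

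TMPO-AS1, antisense to the gene of the nuclear lamina protein TMPO (chr12:98512973-98516422), had the largest difference among called antisense genes with a symbol and a mean of at least 50. It had 133 and 113 in control 1 and mimic 1, and 6.72 and 14.3 in control 2 and mimic 2, a log2 difference of -3.51 ± 0.39 (SE, n = 2 per number, limma adjusted p = 8.54e-05). TBX2-AS1 had 150 and 150 against 23.6 and 45.5, and CCNT2-AS1 had 88.3 and 81.9 against 21.3 and 23.9. ATP2A1-AS1 had 115 and 117 against 29.2 and 43.5. In these 4 genes every number 2 value was below every number 1 value. DLEU2, the host transcript of miR-15a and miR-16-1 (chr13:49982552-50125720), had 358 and 327 against 150 and 132, a log2 difference of -1.28 ± 0.15. VIM-AS1 had 157, 445, 123 and 80.9 in control 1, mimic 1, control 2 and mimic 2, a log2 difference of -1.40 ± 0.42. It lost the call without control 2 (-1.70), mimic 1 (-0.65) or mimic 2 (-1.10), with an adjusted p of 0.0723, 0.126 and 0.200 (limma), and was at -2.14 without control 1.

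Of antisense genes higher in number 2, VLDLR-AS1 (chr9:2421597-2643359) had 18.7 and 40.5 in control 1 and mimic 1, and 202 and 237 in control 2 and mimic 2, a log2 difference of 2.94 ± 0.34 (SE, n = 2 per number). NRSN2-AS1 had 67.6 and 58.5 against 207 and 258, and ZNF22-AS1 had 65.5 and 77.3 against 258 and 261. In both genes number 2 was more than 2-fold higher in each group. DPH5-DT had 86.3 and 75.7 against 312 and 209, USP34-DT had 26.0 and 36.9 against 117 and 78.1, and LBX2-AS1 had 82.1 and 72.9 against 236 and 225. The log2 differences of these 5 genes were 1.56 to 1.86.

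Each antisense gene was set beside the protein-coding gene it overlaps. In 649 pairs both were tested. The antisense gene was below its partner per kilobase in 576 of them, at a median ratio of 0.0634. Across the 649 pairs the log2 differences between numbers had a Pearson's r of 0.25 and a Spearman's rho of 0.16, a description over genes that share libraries and depth. Both partners were called in 100 pairs, in the same direction in 69. Without exon overlap on the other strand the r was 0.29 over 135 pairs, and 18 of 26 pairs with both called had the same direction. Genes with divergent starts within 1000 bases gave an r of 0.23 over 133 lincRNA pairs, with 14 of 19 in the same direction, and an r of 0.23 over 135 antisense pairs, with 11 of 13.

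VLDLR, the gene of a lipoprotein receptor, had a log2 difference of 1.32 ± 0.08 (SE) beside 2.94 for VLDLR-AS1. TBX2, the gene of a T-box transcription factor, had -2.47 ± 0.14 beside -2.16 for TBX2-AS1, with no exon overlap on the other strand. TMPO had -1.73 ± 0.12 beside -3.51 for TMPO-AS1. In these 3 pairs both genes moved in the same direction. DLEU2 at -1.28 ran against TRIM13, the gene of a ubiquitin ligase, at 0.61 ± 0.13. USP34-DT at 1.59 ran against XPO1, the gene of the nuclear export receptor, at -0.48 ± 0.09. VIM, the gene of vimentin, had a log2 difference of -1.09 ± 0.10 beside -1.40 for VIM-AS1. Its mean level per kilobase was 103840, against 211 for VIM-AS1.

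The 5 antisense genes with a symbol, a tested partner and the highest mean normalized values, not scaled to length, were LUCAT1, THAP9-AS1, GABPB1-AS1, AGAP2-AS1 and PSMA3-AS1. LUCAT1 had a log2 difference of -0.09 ± 0.12 while ADGRV1, the gene of an adhesion receptor, was at -1.02 ± 0.15. THAP9-AS1 rose by 0.67 ± 0.09, with 1018, 1695, 1144 and 1733 in control 1, control 2, mimic 1 and mimic 2, beside THAP9 at 0.37 ± 0.20. GABPB1-AS1 rose by 0.51 ± 0.10 beside GABPB1, the gene of a transcription factor subunit, at 0.19 ± 0.11. Neither THAP9 nor GABPB1 passed the test. AGAP2-AS1 was lower by -0.65 ± 0.14 beside AGAP2 at 0.49 ± 0.26, and PSMA3-AS1 was at -0.06 ± 0.13 beside PSMA3, the gene of a proteasome subunit, at -0.35 ± 0.08. GABPB1-AS1 lost the call without control 2 (0.48, limma adjusted p = 0.0545) and AGAP2-AS1 without mimic 2 (-0.62, adjusted p = 0.0611).

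**Figure D5:**
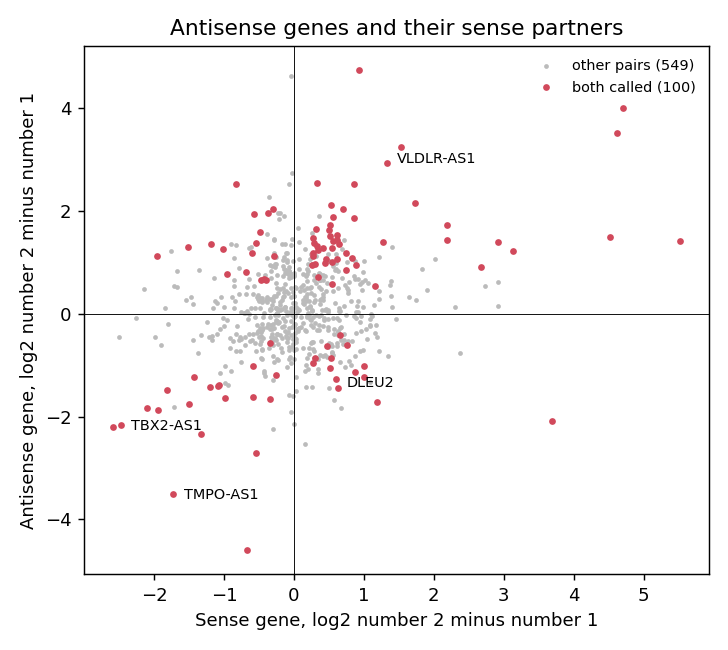
Each point is 1 antisense gene with its tested protein-coding partner, with the partner's log2 difference between numbers on the x axis and that of the antisense gene on the y axis. Red points are the 100 pairs in which both passed the test, 69 of them in the 2 quadrants of equal direction, and TMPO-AS1, TBX2-AS1, VLDLR-AS1 and DLEU2 are named.

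The long RNAs linked to p53, the tumour suppressor and transcription factor, were 6 genes in the table with 5 tested, and 4 rose in number 2 and none fell, at a median log2 difference of 0.38 against 0.01 for all genes. Of all 16535 genes 26% rose and 24.2% fell between numbers, 50.2% in all, and the counts of this and the other lists are descriptions to be read against those shares. PURPL, an RNA that restrains basal p53, had 225 and 256 in control 1 and mimic 1, and 470 and 503 in control 2 and mimic 2, a log2 difference of 1.02 ± 0.13 (SE, n = 2 per number, limma adjusted p = 0.000243). MIR34AHG, the host transcript of miR-34a, had 538 and 484 against 671 and 625, and LINC-PINT, a p53-induced RNA, had 402 and 475 against 623 and 517. The fourth was PINCR, chosen after its values were seen, with 34.3 and 30.6 against 119 and 136. TP53TG1 was at 0.24 ± 0.20 and did not pass. The list had 2 called genes without control 2 or mimic 2 and 3 without control 1 or mimic 1. MIR34AHG lost the call without control 2 (0.29), mimic 1 (0.27) or mimic 2 (0.40). LINC-PINT, with an adjusted p of 0.0484 over all 4 libraries, lost it without control 1 (0.26), control 2 (0.24) or mimic 2 (0.51). No gene of this list passed between mimic and control in the fit without the replicate block, where its median was -0.01.

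Of the transcripts of the HOX clusters, which hold the body-axis transcription factor genes, 7 were tested, 1 rose and 1 fell, against 26% and 24.2% of all genes, at a median log2 difference of 0.50. HOTAIRM1 stood at 341 and 351 in the number 1 libraries and at 514 and 520 in the number 2 libraries, a log2 difference of 0.58 ± 0.12 (SE, n = 2 per number). HAGLR of the HOXD cluster had 257 and 353 against 186 and 173, a log2 difference of -0.74 ± 0.18. It lost the call without control 2 (-0.80), mimic 1 (-0.51) or mimic 2 (-0.69), where the adjusted p was 0.0553, 0.0503 and 0.0840 (limma). HOXD-AS2 at 0.25 ± 0.19 and HOXB-AS1 at 0.57 ± 0.25 did not pass.

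The stress and hypoxia list had 7 tested genes, of which 2 rose and 2 fell, at a median of 0.16, where 26% of all genes rose and 24.2% fell. MIR22HG, the host transcript of miR-22 (chr17:1711493-1717174), stood at 783 and 713 in the number 1 libraries and at 1545 and 1899 in the number 2 libraries, a log2 difference of 1.20 ± 0.12 (SE, n = 2 per number, limma adjusted p = 4.26e-05). UCA1, chosen after its values were seen, had 131 and 93.6 against 186 and 205, and lost the call without control 2 (0.88) or mimic 2 (0.74). LINC01116 fell by 0.56 on the log2 scale and CYTOR by 0.38, and CYTOR lost the call without mimic 2 (-0.29). The inflammation list had 11 tested, with 2 higher and 2 lower and a median of -0.09, which was 0.02 without mimic 2. MIR222HG, the host transcript of miR-221 and miR-222 (chrX:45745211-45770274), had 1091 and 1109 against 605 and 576, a log2 difference of -0.90 ± 0.10. The other 3 were chosen after their values were seen. PACERR, which lies beside the prostaglandin synthase gene PTGS2, had 17.7 and 10.8 against 42.6 and 53.2, and LINC01705 had 30.3 and 27.1 against 135 and 95.5. CHROMR, a regulator of cholesterol efflux, fell from 247 and 203 to 155 and 129. PACERR lost the call without mimic 2 (1.55), and CHROMR without control 1 (-0.52) or mimic 2 (-0.53). The more abundant LINC00941 gene was at 0.07 ± 0.09 and MIR4435-2HG at -0.19 ± 0.16.

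Of 14 tested genes on the glioma and neural list 4 rose and 3 fell between numbers, at a median of 0.32 that was -0.09 without control 1. The share called was near the 50.2% of all genes. LINC00520 had the largest called difference, 1.48 ± 0.18 (SE, n = 2 per number). CRNDE stood at 688 and 839 in the number 1 libraries and at 1098 and 1029 in the number 2 libraries, a log2 difference of 0.48 ± 0.12, and lost the call without control 2 (0.44) or mimic 2 (0.53). HOTAIRM1 is described above, and the other higher gene, LINC00632, chosen after its values were seen, had 388 and 387 against 586 and 706. The lower genes were AGAP2-AS1, LINC01116 and CYTOR. The dosage and imprinting list had 5 tested, of which 3 rose and none fell, at a median of 0.55, a count near the 50.2% of all genes called. JPX and FTX, transcripts of the X-inactivation centre, had log2 differences of 0.83 ± 0.15 and 0.43 ± 0.12. MEG8, a maternally expressed imprinted RNA, had 8.31 and 8.12 against 21.3 and 31.5, and GNAS-AS1 at -0.65 ± 0.31 did not pass. FTX lost the call without control 1 (0.38) or mimic 2 (0.29), and MEG8 without control 2 (1.82) or mimic 2 (1.28). At the 9p21 locus only CDKN2B-AS1 was in the table, at 6.24, 8.97, 8.99 and 1.91 in control 1, control 2, mimic 1 and mimic 2, below the level tested. Of the 38 microRNA host genes present 20 were tested, with 3 higher and 3 lower in number 2, against 26% and 24.2% of all genes, and a median of -0.25. The higher ones were MIR503HG, MIR22HG and MIR34AHG. The lower ones were MIR222HG and, chosen after their values were seen, MIR3681HG, at 371 and 302 against 224 and 215, and MIR762HG, at 26.0 and 20.8 against a listing of 0 in both number 2 libraries. MIR3681HG lost the call without control 1 (-0.46), control 2 (-0.64) or mimic 2 (-0.58). MIR23AHG, the host transcript of miR-23a, was at 0.33 ± 0.13 and did not pass. No gene of these lists passed between mimic and control in the fit without the replicate block. Named above as passing with the block were LINC00461 (limma adjusted p = 0.00013) and the less abundant LINC00941 gene, which had a library at 0.

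A RefSeq start region was found for 1361 members, 750 of them tested and 214 called between numbers. The motifs were counted as letters on either strand, with no regard to overlap between motifs, in the regions printed near the beginning and in all others of the same length. TGACTCA was in 11 of 77 regions of members lower in number 2 (14.3%), in 10 of 137 of members higher (7.30%) and in 38 of 534 of tested members not called (7.12%), and in 4.95% of all 35116 RefSeq regions. TATAAA was in 10.4%, 8.76% and 8.80% of the same groups and in 11.5% of all regions. TTTCCCGC was in 3 of the lower and 1 of the higher regions, TTTGGCGC in 1 and 0, TGATGNAAT, a composite site of ATF4 and C/EBP, in 2 and 2, and the NF-kB motif in 2 and 3. The median GC content was 58% in the lower group, 61% in the higher group and 62.5% in those not called. A match describes letters and is not a binding site.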

How the data were processed

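Poly(A)-selected RNA of 4 libraries of U87 cells was made into paired-end libraries with a directional kit, per the labels' protocols. Tools named in the submitters' processing notes are kallisto and DESeq2, with the build hg38. Versions, annotation release and strand setting are not given in the sources used here. The deposited table holds a signal per Ensembl transcript, estimated reads that the authors scaled per library, judging from the values. Whole reads were recovered from 1 step per library, and 95.6% to 99.7% of low values were whole multiples within a tolerance of 0.1. No row summed to under 10 reads, so rarer transcripts were not analysed here. A value of 0 in a library may be a failed estimate, which was not tested.

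Of 100809 transcripts 90643 (89.9%) matched GENCODE v29 by identifier without version, 79288 with the same version; 3.25% to 3.56% of values did not match and were left out. Values were summed per gene. Genes were tested with limma (trend) on log2(value + 1), which understates the change of low genes, for genes with a mean of at least 10, two-sided, adjusted with Benjamini-Hochberg over all genes at 0.05. It was checked on simulated data in which some genes were changed, in separate runs between groups and between numbers. The run between groups held no difference between numbers. That check therefore does not show how the test fares between mimic and control in these libraries. Shares were compared with an exact permutation test.

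The members, the lists and the comparison between numbers were chosen with earlier results of these data known. Genes were named by symbol, none from chromosome 8. Between numbers these were the 6 largest called differences per type and direction with a mean of at least 50. Between groups they were the 5 smallest p-values per type and direction among genes without overlap and with a mean of at least 50. Added were the 6 highest per kilobase of each type, up to 4 of each list, 5 antisense genes with partners and 5 called with the block. A gene that the rule takes is not reported here. Same-numbered libraries share only a number in the labels. Alternatives were other pseudocounts, filters and scalings, edgeR and DESeq2 on recovered reads, same-version transcripts, a block, members without exon overlap and each library left out. Leaving out the most abundant antisense gene was an alternative chosen after seeing the data. Software was Python 3.11.15 and R 4.3.3 with DESeq2 1.42.0, edgeR 4.0.16 and limma 3.58.1.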

Additional observations from a re-analysis of the deposited data

How the results depend on the processing

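Between mimic and control, 0 genes and 0 members were called under every alternative without a replicate block, libraries left out included. With the replicate block 117 genes and 17 members were called. Deviations of same-numbered libraries from their group means had an r of 0.745 over all genes and 0.558 over members, which is a hint from the data and not the design.

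Between numbers, 8301 genes and 464 members were called. With transcripts of the same version only the counts were 3965 and 220. Members called were 257 at a mean of at least 50, 304 with DESeq2 and 226 among those with no exon overlap, and fewer genes were tested in the first and last of these. Leaving out 1 library gave 5163 to 7942 genes and 248 to 398 members, with fewer samples in the fit. Of the 44 called differences between numbers that the naming rule takes, 12 lost the call with some library left out. Of the list genes named after their values were seen, UCA1, PACERR, CHROMR and MIR3681HG lost it too.

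The number difference of the lincRNA share turned to 0.00183 percentage points without mimic 1, and its range over the libraries left out ran from -0.0146 to 0.00183. That of the antisense share was -0.0380 per kilobase, -0.0140 with no exon overlap and -4.2e-05 without control 1, up to 0.0202 with another library left out. With a library left out the log2 difference of LUCAT1 ran from -0.249 to 0.0713 and that of PSMA3-AS1 from -0.184 to 0.0567. Between mimic and control LINC00847 ran from -0.0952 to 6.32, TMEM147-AS1 from -0.129 to 2.57 and LINC00941 from -6.29 to 0.114. The cause of these turns was not tested. Most tested members lie at means of 10 to 50, where the median SE of a log2 difference between numbers was 0.47. Most changes under about 2-fold between numbers would therefore go undetected there. This SE does not apply to mimic against control, for which no such limit is given.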

Other observations

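Some tested members were listed at 0 in a library although their other libraries held reads. There were 38 such members, 32 with 1 library at 0 and 6 with 2. Of the 6, 4 were at 0 in both number 1 libraries and 1 in both number 2 libraries. FLRT2-AS1 was listed at 0 in control 1 and mimic 1 and had 26.9 in control 2 and 32.5 in mimic 2. L3MBTL2-AS1 was listed at 0 in the same 2 libraries and had 29.1 and 19.1 in the others. MIR762HG had the opposite pattern, with 26.0 and 20.8 in number 1 and a listing of 0 in both number 2 libraries. MIR924HG was the member at 0 in both mimic libraries, with 39.5 in control 1 and 7.84 in control 2. DDIT4-AS1, antisense to a stress-induced inhibitor of growth signalling, was listed at 0 in control 1 and had 0.901 in mimic 1, 41.5 in control 2 and 10.5 in mimic 2. All genes named here were picked with their values in view. Counts at 0 were 13, 7, 15 and 9 in control 1, control 2, mimic 1 and mimic 2.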
